A study of Caenorhabditis elegans with 83 samples.

Results

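The sites described here are those bound by the cohesin loader PQN-85, by the cohesin subunit SMC-3 or by both in Caenorhabditis elegans of strain JK06 after 1 h of auxin, the condition in which WAPL-1 was depleted. They were taken from the authors' combined PQN-85 peak set (6713 peaks) and combined SMC-3 peak set (6107 peaks) of that strain, which together make up 12820 of the 29874 peaks in the 6 combined sets of the series. A peak was counted as shared when it overlapped a peak of the other protein by at least 1 bp. Runs of overlapping peaks gave 8806 sites, of which 3838 (43.6%) held both proteins, 2755 (31.3%) PQN-85 only and 2213 (25.1%) SMC-3 only.

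Cohesin is a ring-shaped complex of SMC-1, SMC-3 and a kleisin subunit that holds or folds DNA. It is loaded by the NIPBL-type protein, called PQN-85 or SCC-2 in worms, with its partner MAU-2, and is released from chromatin by WAPL-1. NIPBL is also known from other species to be needed while cohesin extrudes DNA loops, so loader and ring can meet at sites of loading and along the path of extrusion. ChIP-seq reads out, over a population of worms, where each protein is enriched, and a shared peak does not show that both sat on the same DNA molecule.

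All samples were synchronized whole worms labelled L3 (L2/L3 in the series' design), grown for 24 h at 22 °C from starved L1 larvae, and the treated ones were kept on plates with auxin. The labels give 1 mM for JK06 PQN-85, JK06 SMC-3 replicates 3 and 4, HW04 and the RNA libraries, and no concentration for the other libraries used. Auxin triggers removal of a protein that carries a degron tag. The groups used were JK06 (WAPL-1 depletion), JK05 (SMC-3 depletion), HW04 (degron target not given in the sources used here) and CA1200 (control), the first 2 and the last with auxin and HW04 with and without it. The labels name the strains without their alleles, and the promoter and tissue of the auxin receptor are not given in the sources used here. JK06 was compared with CA1200 and no PQN-85 or SMC-3 list of JK06 without auxin was used, so depletion and other differences between the strains cannot be told apart, and none of the files used here measures how much WAPL-1 protein was left. In GEO, JK06 PQN-85 and JK06 SMC-3 replicates 3 and 4 stand in a separate block of samples from the CA1200 libraries. For these libraries, block and strain cannot be told apart either. Whole worms hold all tissues, and a change in a few cells cannot be told apart from a small change in many.

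By the library names that each peak's name carries, the JK06 PQN-85 set combines 2 libraries and the JK06 SMC-3 set 4, while each CA1200 set combines 2. The same names give 1 extract for 1 of the PQN-85 libraries and SMC-3 replicate 4. GEO links both JK06 sets to samples of another antibody or strain, so these names, and not the link, decided what each set holds. Since there is 1 combined set per strain and protein, values of strains are set side by side without a test, and the exact Clopper-Pearson 95% intervals cover counting error over peaks only. Read depth per library is unknown.

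Without WAPL-1, PQN-85 and SMC-3 coincided at most of the peaks of either list. Of the 6713 PQN-85 peaks, 3958 (59.0%, 95% interval 57.8 to 60.1) were overlapped by SMC-3, whose peaks cover 4.82% of the bases spanned. Of the 6107 SMC-3 peaks, 3894 (63.8%, 62.5 to 65.0) were overlapped by PQN-85, whose peaks cover 4.07%. Most shared sites were simple: 3706 of 3838 (96.6%) held 1 peak of each protein, while 8 PQN-85 peaks and 4 SMC-3 peaks were the most found at a single site. Contacts at the margin were rare. A total of 1 PQN-85 peak overlapped SMC-3 by no more than 50 bp, and 3 unshared PQN-85 peaks lay within 50 bp of an SMC-3 peak. For peaks without a partner, the median gap was 4734 bp from PQN-85 to the nearest SMC-3 peak and 4734 bp in the other direction. The gap of a random position was not computed, so these values have no background beside them. The partner lay within 500 bp for 194 lone PQN-85 peaks (7.04%) and for 92 lone SMC-3 peaks (4.16%).

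The share moved with the list that was used. Against the single list of SMC-3 replicate 3 (8876 peaks), 70.5% of PQN-85 peaks were shared, and against that of replicate 4 (6782 peaks), 61.3%. In return, 4793 of the 8876 peaks of replicate 3 (54%) and 61.5% of those of replicate 4 were overlapped by PQN-85. A longer PQN-85 list called on the averaged libraries held 11303 peaks, including all 6713 combined ones. It reached 80.2% of the SMC-3 peaks, while 44.99% of its own peaks were shared. Its 4590 further peaks were weaker, with a median score of 322 for the combined ones and 101 for these (the authors' score is 10 times the −log10 q value). The spread between the replicate lists, 61.3% to 70.5% for PQN-85, is the only measure here of how far libraries move the shares.

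**Figure D1:**
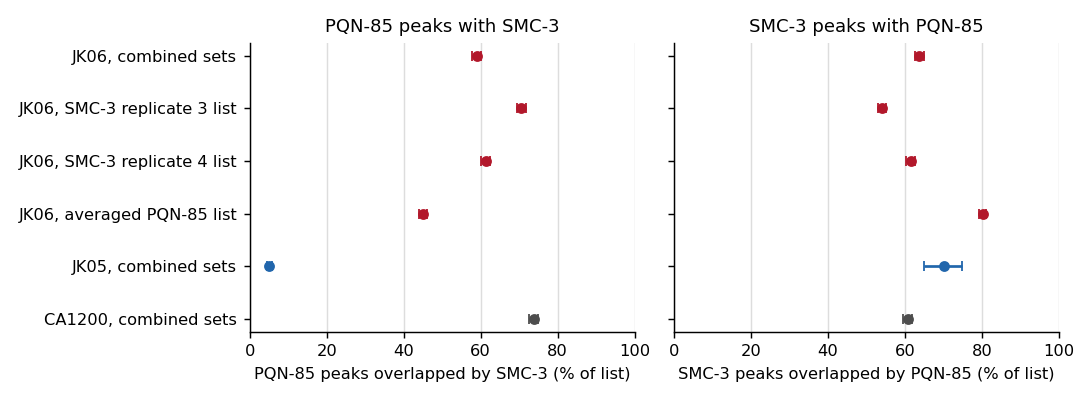
Share of PQN-85 peaks overlapped by SMC-3 (left, % of the list) and of SMC-3 peaks overlapped by PQN-85 (right) in JK06 (red), JK05 (blue) and CA1200 (grey). Points are shares and bars exact 95% intervals over peaks, which cover counting error only; the JK06 combined sets sit at 59.0% and 63.8%, between the values of the other JK06 lists.

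Set beside the control, the shared part of the PQN-85 list was smaller in JK06, by an amount that depended on the list lengths, and that of the SMC-3 list was larger or smaller depending on them. The PQN-85 share was 59.0% in JK06 and 73.8% (72.6 to 74.9) in CA1200, a difference of −14.8 percentage points. The SMC-3 share was 63.8% in JK06 and 60.7% (59.5 to 61.9) in CA1200, a difference of 3.06 points. List lengths differed, since the JK06 sets held 6713 PQN-85 and 6107 SMC-3 peaks and the CA1200 sets 5385 and 6290. Cut to the 5000 highest-scoring peaks of each list, the PQN-85 share was 60.6% in JK06 and 68.5% in CA1200, a difference of −7.86 points. The SMC-3 share was then 59.9% in JK06 and 65.6% in CA1200, and that difference turned to −5.66 points. With the list of SMC-3 replicate 3 in place of the combined set, the JK06 PQN-85 share was 70.5%, closer to the control. The lists are unlike, since that of replicate 3 holds 8876 peaks down to a −log10 q of 1.31. The combined SMC-3 set of CA1200 holds 6290 down to 2.25, and no single CA1200 list was used. In sites, 3838 held both proteins in JK06 and 3771 in CA1200, whereas PQN-85 stood alone at 2755 sites in JK06 and at 1413 in CA1200. Where SMC-3 itself was depleted, in JK05, 5.02% of 5018 PQN-85 peaks were shared with the 361 SMC-3 peaks left, a share that so short a list keeps low, while 253 of those 361 SMC-3 peaks (70.1%) were shared.

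Strong peaks were shared far more often than weak ones. Among PQN-85 peaks in JK06 the shared part was 33.1% in the lowest decile by score and 90.5% in the highest. For SMC-3 peaks it was 41.5% in the lowest decile and 91.2% in the highest. In both lists the share was higher in each decile than in the one before. The PQN-85 shares of JK06 lay below those of CA1200 in all 10 deciles, which ran between 43.9% in the lowest and 98.0% in the highest in CA1200. The SMC-3 shares of JK06 were above those of CA1200 in the lowest decile, at 41.5% against 28.3%, and in the highest, at 91.2% against 85.9%, and lay on either side of them in between.

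**Figure D2:**
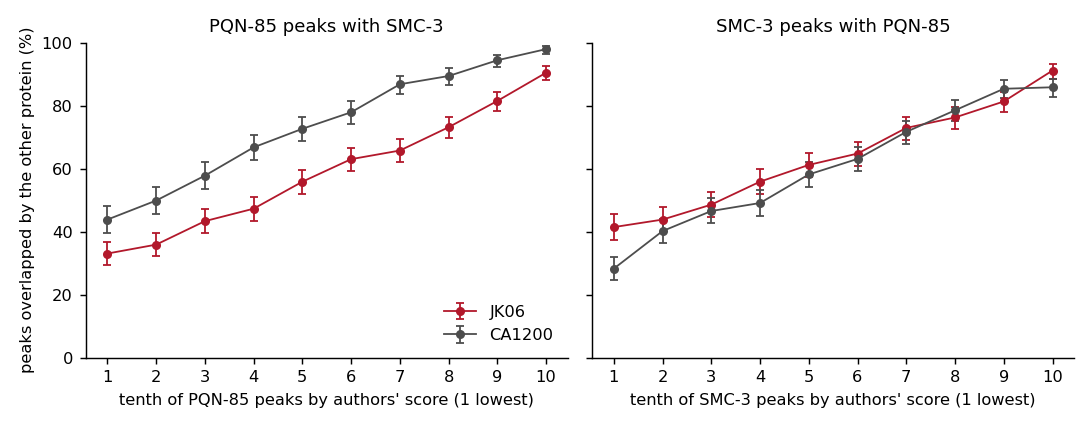
Share of peaks overlapped by the other protein (%) in each decile of the list by the authors' score, lowest at left, for PQN-85 (left) and SMC-3 (right) peaks of JK06 (red) and CA1200 (grey). Bars are exact 95% intervals over peaks; PQN-85 peaks of JK06 reach 90.5% in the highest decile, against 98.0% in CA1200, and the SMC-3 curves of the strains cross.

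Where both proteins bound, their summits nearly coincided. Over the 4014 overlapping pairs in JK06 the median distance was 24 bp, with quartiles of 10 and 52 bp, and 86.7% of pairs lay within 100 bp. In CA1200 the median over 4019 pairs was 32 bp, with quartiles of 13 and 73 bp, and 81.3% lay within 100 bp. The fragments were longer than these medians, per the sonication step in the labels' protocols. The median was smaller in JK06, but the single lists gave medians of 30 bp (replicate 3) and 32 bp (replicate 4), so that the difference from CA1200 was not larger than the spread between JK06 lists. By chromosome the JK06 median ranged between 23 and 27 bp, with the highest on X, and the CA1200 median between 28 and 39 bp.

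Summits lay closest together at gene starts. There the median distance was 17 bp in JK06 (1682 pairs) and 20 bp in CA1200 (1452 pairs). Inside genes it was 31 bp in JK06 and 44 bp in CA1200, and elsewhere 30 bp and 40 bp. Stronger shared peaks were more often at starts in JK06. The share at starts was 16.6% in the lowest SMC-3 score decile and 57.3% in the highest, and 23.9% and 35.7% for PQN-85. Distances were not compared at like score, so the part of peak strength was not tested. A tail of distant summits existed mainly away from starts: 2.26% of pairs at gene starts were more than 500 bp apart in JK06, against 9.55% inside genes and 8.39% elsewhere. Measured along the direction of the nearest gene, SMC-3 summits lay on either side of PQN-85 about equally often. The signed median was 1 bp in JK06 and 1 bp in CA1200, and SMC-3 lay on the downstream side in 51.0% of pairs in JK06 and 50.8% in CA1200.

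**Figure D3:**
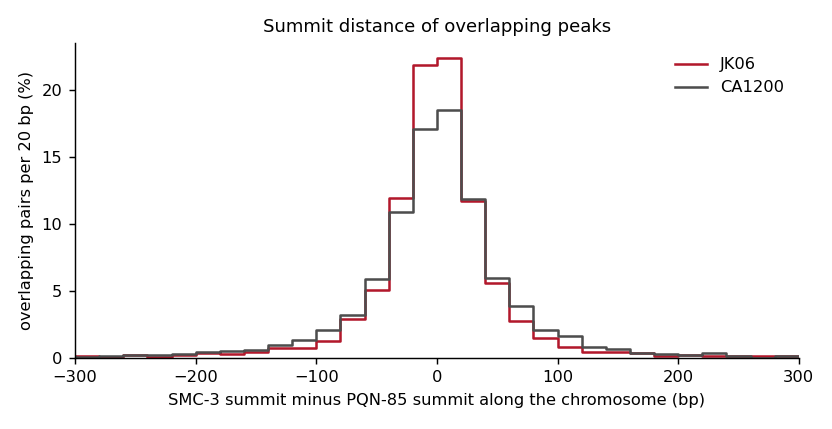
Distance of the SMC-3 summit minus the PQN-85 summit along the chromosome (bp, 20 bp bins, shown to 300 bp) as a share of overlapping pairs (%), for 4014 pairs in JK06 (red) and 4019 in CA1200 (grey). The JK06 curve is higher at the centre, with 22.4% of pairs between 0 and 20 bp against 18.5% in CA1200, and both curves are close to symmetric around 0.

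Over the whole lists, peaks of each protein had higher median widths and folds at shared sites than alone, with overlapping ranges, but the order of the folds turned round among peaks of like score. PQN-85 peaks had a median width of 519 bp with SMC-3 (quartiles 424 and 714.75) and of 449 bp without it (385 and 569). SMC-3 peaks had a median width of 582 bp with PQN-85 (481 and 793) and of 547 bp without it (442 and 852). The quartiles overlap widely, and lone SMC-3 peaks had the longer upper tail, since 4.26% of shared ones were 2 kb or more wide and 5.11% of lone ones. The authors' fold enrichment at the summit had a median of 3.21 for shared and 2.72 for lone PQN-85 peaks, and of 2.18 for shared and 1.97 for lone SMC-3 peaks. With the single SMC-3 lists the SMC-3 width difference of 35 bp became 87 bp (replicate 3) and 91 bp (replicate 4), and the fold difference of 0.216 became 0.423 and 0.417. Among peaks with a score above the list's median the fold differences were 0.0671 for PQN-85 and 0.0290 for SMC-3. Within quartiles of score lone peaks had the higher median fold in all 4 for either protein. For PQN-85 the medians were 2.25 for shared and 2.29 for lone peaks in the lowest quartile and 4.22 and 4.42 in the highest. For SMC-3 they were 1.71 for shared and 1.74 for lone peaks in the lowest and 2.66 and 2.69 in the highest. In the lowest SMC-3 quartile the width order turned round too, at 574 bp for shared and 657 bp for lone peaks.

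Within a pair the footprints were of similar size. The ratio of SMC-3 to PQN-85 width had a median of 1.105 in JK06 and 1.117 in CA1200. In JK06 47.5% of pairs had the PQN-85 peak wholly inside the SMC-3 peak, and 20.1% the reverse. SMC-3 was at least 2-fold wider in 414 pairs in JK06 (10.3%) and in 523 of 4019 in CA1200. Across pairs the Spearman rho between the folds of the 2 proteins was 0.197 in JK06 and 0.495 in CA1200. This describes sites that share libraries and their depth, and is not a test. Shared SMC-3 peaks also had a narrower range of folds in JK06 (quartiles 1.92 and 2.51) than in CA1200 (2.22 and 3.28). The SMC-3 sets combined 4 libraries in JK06 and 2 in CA1200. What these differences do to the rho was not tested.

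PQN-85 peaks with SMC-3 lay at gene starts more than 2 times as often as PQN-85 peaks alone. Of the shared ones, 42.4% (40.8 to 43.9) had their summit within 500 bp of a gene start, of the lone ones 18.4% (16.97 to 19.9). The bases within that window make up 17.7% of the assembly spanned. Lone PQN-85 summits were thus at the starts used about as often as bases are. These are the starts of 18607 genes, of which 0 matched the tRNA list. A summit at a tRNA gene counted as inside a gene or elsewhere, unless another start lay within 500 bp. Shared PQN-85 summits lay inside genes in 18.04% of cases and elsewhere in 39.6%, lone ones in 33.6% and 47.9%. Of the bases, 48.9% lie inside genes and 33.4% elsewhere, so both classes were inside genes less often than bases are. SMC-3 peaks differed little by class: 43.03% (41.5 to 44.6) of shared and 40.3% (38.2 to 42.3) of lone SMC-3 summits were at gene starts. In CA1200 the PQN-85 classes stood closer together, at 36.2% for shared and 27.8% for lone peaks, and the SMC-3 classes farther apart, at 37.5% and 30.3%.

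The PQN-85 contrast was also seen among peaks of like score. From the lowest to the highest quartile of PQN-85 scores, shared peaks in JK06 were at gene starts in 33.8%, 42.3%, 47.3% and 42.1% of cases, and lone peaks in 16.8%, 22.9% and 21.5% in the upper 3 and in 177 of 1074 cases in the lowest. The shared class was ahead in all 4. For SMC-3 the order turned round in 3 of the 4: shared peaks stood at 20.95%, 34.9%, 45.5% and 57.9% and lone peaks at 27.2%, 44.2%, 51.1% and 55.4%. Without the X chromosome the contrast for PQN-85 grew to 27.1 percentage points. On the single chromosomes, shared PQN-85 peaks were at starts in 30.9% (X) to 48.5% (I) of cases and lone ones in 13.8% (III) to 25.1% (V).

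Firmer classes, which use all JK06 lists, gave the same order for PQN-85. Of the 2755 lone PQN-85 peaks, 939 overlapped a peak in the single list of SMC-3 replicate 3, replicate 4 or both (193 in both), and 20.7% of these were at gene starts, while 1816 overlapped none in any of the 3 SMC-3 lists, with 17.2% at gene starts. Lone SMC-3 peaks fell into unlike groups. The 1002 that overlapped a PQN-85 peak of the longer averaged list were at gene starts in 52.4% of cases (49.2 to 55.5), and the 1211 that did not in 30.2% (27.6 to 32.9). The 1002 had a median width of 495 bp and the 1211 one of 638 bp. SMC-3 peaks without any PQN-85 call were broader and less often at starts, although still above the 17.7% of bases. They were also weaker, with a median score of 173 against 248.5 for the 1002. Among all lone SMC-3 peaks, those in the lowest score quartile had a median width of 657 bp and 27.2% at starts. Those in the second quartile had 506 bp and 44.2%. Width and context were not compared at like score between the 1002 and the 1211, so the part of peak strength was not tested.

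**Figure D4:**
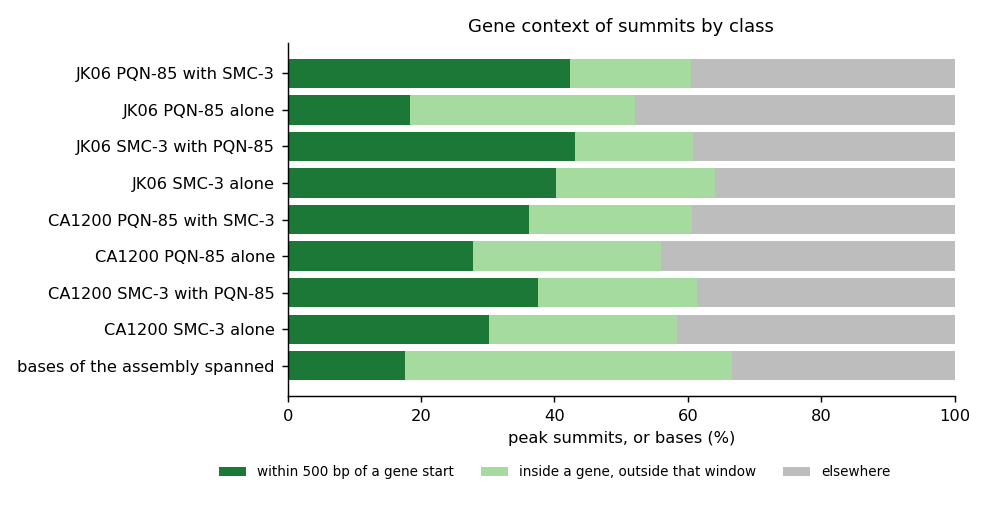
Summits (% of each class) no more than 500 bp away from a gene start (dark green), inside a gene outside that window (light green) or elsewhere (grey), for shared and lone peaks of JK06 and CA1200, with the share of bases in each context in the lowest bar. In JK06 lone PQN-85 peaks (18.4% at starts) stand at the level of the bases (17.7%), apart from the other 3 classes (40.3% to 43.03%). Starts are those of 18607 genes, with no tRNA gene matched.

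At gene starts both proteins sat upstream. The median position of shared summits was −161 bp for PQN-85 and −156 bp for SMC-3 in JK06, with 89.7% and 89.5% of summits upstream of the start. Lone PQN-85 summits at starts had a median of −148 bp and lone SMC-3 summits one of −111 bp. In CA1200 shared summits stood at −160.5 bp for PQN-85 and −157 bp for SMC-3, and lone ones at −144 bp for PQN-85 and −123 bp for SMC-3.

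Most JK06 sites with both proteins held both in the control as well. Of 3838 such sites, 2710 (70.6%) overlapped both proteins in CA1200, 667 (17.4%) SMC-3 only, 193 (5.03%) PQN-85 only and 268 (6.98%) neither. Sites with PQN-85 only in JK06 were mixed. In CA1200, 843 of the 2755 (30.6%) held both proteins, 716 (25.99%) PQN-85 only, 321 (11.7%) SMC-3 only and 875 (31.8%) neither. Sites with SMC-3 only in JK06 had mostly no call in the control, with 1169 of 2213 (52.8%) at neither protein, and 752 (33.98%) at SMC-3 only.

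Seen from the control, co-bound sites that held both proteins in JK06 were more often at gene starts than those that held PQN-85 only. Of the 3771 co-bound CA1200 sites, 2622 (69.5%) held both proteins in JK06, 735 (19.5%) PQN-85 only, 217 (5.75%) SMC-3 only and 197 (5.22%) neither. Among CA1200 SMC-3 peaks with PQN-85, 44.1% (42.2 to 46.0) of the 2641 that overlapped both proteins in JK06 were at gene starts, against 16.15% (13.6 to 19.0) of the 749 that overlapped PQN-85 only. The 220 that overlapped SMC-3 only in JK06 were at starts in 51.4% of cases and the 207 that overlapped neither in 15.9%, so the share was high where SMC-3 was called in JK06, with PQN-85 or without. The PQN-85-only ones had been weaker in the control, with a median SMC-3 score of 397 for the kept ones and 144 for these. Within quartiles of that score, lowest to highest, the kept peaks were at starts in 40.3%, 43.7%, 49.0% and 41.2% of cases and the PQN-85-only ones in 18.1%, 13.4%, 13.2% and 15.4%, the last over 13 peaks. The 382 PQN-85-only peaks that overlapped SMC-3 in neither JK06 replicate list gave 14.9%, and the 367 that did in a replicate list gave 17.4%. Whether the depletion, the strain or the different number of combined libraries set these classes was not tested.

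In JK06 the X chromosome held more PQN-85 peaks than its share of bases, as did chromosome III. On X there was no such excess of lone SMC-3 peaks. Chromosome III had 81.7 SMC-3 peaks per Mb, of which 60.8% were shared, and X had 68.6, of which 69.7% were shared. There were 80.8 PQN-85 peaks per Mb on X and 78.6 on III, and 48.1 sites with both proteins per Mb on X and 50.9 on III. X makes up 17.7% of the bases spanned and held 21.6% (20.3 to 22.9) of shared PQN-85 peaks, 20.98% (19.5 to 22.5) of lone PQN-85 peaks and 16.6% (15.1 to 18.2) of lone SMC-3 peaks in JK06. In CA1200 it held 18.7% (17.5 to 19.9) of shared PQN-85 peaks, 26.8% (24.5 to 29.2) of lone PQN-85 peaks and 20.6% (19.1 to 22.3) of lone SMC-3 peaks. Sites that held both proteins in JK06 and SMC-3 only in the control had a large part on X. Of the 701 JK06 PQN-85 peaks with SMC-3 that overlapped SMC-3 only in CA1200, 34.8% lay on X, against 18.5% of the 2773 that overlapped both there. Of the 752 lone JK06 SMC-3 peaks that overlapped SMC-3 only in CA1200, 16.09% lay on X. A like share was found in a class lost from JK06: of the 436 lone CA1200 PQN-85 peaks that overlapped neither protein in JK06, 34.6% lay on X. Of SMC-3 peaks on X, 69.7% were shared in JK06, the highest share of any chromosome there, and 58.1% in CA1200. On the autosomes that share ran between 60.8% and 64.4% in JK06 and between 54.6% and 67.2% in CA1200.

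Coordinates are those of the deposited lists, with each start raised by 1 so that bases are counted from 1. The labels state build ce10 for SMC-3 replicates 1 and 2 of JK06 and none for PQN-85, and the summits of both JK06 lists lay within 1 bp of each other at the median on every chromosome, so they were treated as sharing that build. Distances are from the nearest gene start, negative upstream.

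The strongest PQN-85 peaks with SMC-3 were of mixed shape and strength. Highest was a PQN-85 peak of 7022 bp on chromosome I, 10313655 to 10320676, with a score of 2455 and its summit at 2432 bp from Y106G6G.6, where SMC-3 formed a peak of 571 bp with a score of 177. Next came compact sites on X, at 1626743 to 1627689 near ZK380.2 (score 2427) and 12362663 to 12363630 near F19H6.6 (score 2379). There SMC-3 reached scores of 788 and 759 with summits 10 and 30 bp away, and both sites overlapped SMC-3 and not PQN-85 in CA1200. At adh-1, an alcohol dehydrogenase gene, PQN-85 scored 2328 with its summit at −128 bp and SMC-3 182, on chromosome V from 11887580 to 11888603. A 6705 bp PQN-85 peak on chromosome I, its summit inside C17H1.2 and nearest to the start of pals-13, scored 2289 with SMC-3 at 223. Top PQN-85 strength thus went with SMC-3 scores on either side of the SMC-3 median of 283.

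The strongest SMC-3 peaks with PQN-85 were mostly at gene starts, with PQN-85 summits at most 21 bp away. They lay at R166.2 on chromosome II (SMC-3 score 1175, PQN-85 score 519), at the cyclophilin gene cyn-10 on II (1160 and 636), inside ncx-7, a sodium/calcium exchanger gene, on III (1114 and 291), at ced-5, which acts in the engulfment of dying cells, on IV (1100 and 564), and at kvs-3, a potassium channel gene, on V (1067 and 317). All 5 overlapped SMC-3 in CA1200, and those inside ncx-7 and at kvs-3 did not overlap PQN-85 there.

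Lone peaks with the highest scores differed between the proteins. The 5 strongest lone PQN-85 peaks had scores of 2087 (near K07F5.15, chromosome IV), 2079 (near Y26D4A.21, I), 2043 (F18E3.13, V), 1830 (near Y38E10A.14, II) and 1716 (inside the aldehyde dehydrogenase gene alh-1, III). A replicate SMC-3 list held a peak at Y26D4A.21, F18E3.13 and alh-1, so that the peaks near K07F5.15 and Y38E10A.14 were the ones with no SMC-3 in any JK06 list. These last 2 overlapped PQN-85 and not SMC-3 in CA1200. The 5 strongest lone SMC-3 peaks scored 977 (C46F11.4, III), 955 (inside npr-13, of the neuropeptide receptor family, V), 867 (rnf-121, a RING finger gene, III), 846 (ZK622.1, II) and 819 (near F09E5.7, II). The first 4 overlapped a PQN-85 peak of the longer averaged list, and the peak near F09E5.7 did not. The strongest lone SMC-3 peaks were thus mostly sites at which PQN-85 was called by a looser rule.

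The 5 broadest SMC-3 peaks with PQN-85 among the named sites held 1 to 4 PQN-85 peaks each, and the widest lone SMC-3 peak measured 10946 bp. The widest shared SMC-3 peak of the whole list, at 13754 bp, is the 1 on mitochondrial DNA, which the named sites leave out. Each combined JK06 list held 1 such peak, and the 3838 sites with both proteins include them. An SMC-3 peak of 13313 bp upstream of gldi-8 on chromosome III, 12588774 to 12602086, held 1 PQN-85 peak of 1782 bp, with summits 13 bp apart. A peak of 11468 bp near F54F12.1, III from 13048273 to 13059740, held 3 PQN-85 peaks, and 1 of 8104 bp at fbxb-72, an F-box gene, V from 722075 to 730178, held 4. A peak of 9107 bp with its summit inside W06H8.6, V from 6216677 to 6225783, held 3 PQN-85 peaks. Another of 7817 bp near Y39E4B.6, III from 13074364 to 13082180, also held 3. The largest summit distances came from pairs in which 1 of the peaks was wide. They were 7269 bp near W06H8.6, 6561 and 5431 bp at the chemoreceptor gene srh-2 (both PQN-85 peaks overlap the SMC-3 peak at fbxb-72, the first at its edge with its summit outside), 5953 bp near C30E1.2 on X, where PQN-85 was the wide peak (6781 bp), and 5507 bp near pll-1 on III.

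Median RNA level was higher for genes with both proteins at the start than for those with 1 protein or none, which was not tested. Of 18607 genes, 2140 (11.5%) had a shared site within 500 bp of the start, 527 PQN-85 only, 1082 SMC-3 only, 2 a separate peak of each and 14856 none, and 3751 (20.2%) had any. In the authors' deposited table, the median of the mean normalized count per kilobase of gene span, introns included, was 279 for genes with both proteins, 241 with PQN-85 only, 174 with SMC-3 only and 37.01 with none. By this measure 54.3% of genes with both were in the upper quartile of all genes, of those with PQN-85 only 50.2%, of those with SMC-3 only 39.5% and of those with none 18.7% in the authors' deposited table.

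Of the lists used, ribosomal protein genes were most often marked by both proteins. Of 45 genes of the large subunit 39 (86.7%) and of 30 of the small subunit 25 (83.3%) had both, against 11.5% of all genes. At rpl-3 PQN-85 scored 1705 and SMC-3 599, and at rps-15 they scored 1495 and 810. With a window of 250 bp, 29 ribosomal protein genes in place of 64 kept a shared site, the summits of the others lying farther out. Cytosolic heat shock and chaperone genes came next, with 13 of 19 (68.4%) and none with 1 protein only. These included hsp-1, an Hsp70 gene of normal growth (PQN-85 2017, SMC-3 623), the stress-inducible pair F44E5.4 and F44E5.5, which share 1 site (2041 and 569), and hsp-16.11, of the small heat shock family (1459 and 351).

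Other lists divided between the classes, which over all genes hold 11.5% (both), 2.83% (PQN-85 only) and 5.82% (SMC-3 only). Of 15 glycolysis genes 5 had both and 2 PQN-85 only, of 23 body muscle genes 7 had both, 4 PQN-85 only and 2 SMC-3 only, and of 17 neuronal genes 5 had both and 4 PQN-85 only. Muscle genes with both included the actin genes act-2 (PQN-85 731, SMC-3 321) and act-4 (550 and 502), and the troponin T gene mup-2 had PQN-85 only (571). Neuronal genes with both were led by rgef-1 (PQN-85 1230, SMC-3 550) and egl-21, a neuropeptide-processing enzyme gene (1218 and 648), and those with PQN-85 only by unc-104, a kinesin gene (508). In the dosage compensation list, the machinery that represses the X chromosomes in hermaphrodites, 3 of 14 had both and 4 SMC-3 only; the first were sdc-2 (944 and 570), set-4 (857 and 595) and sdc-1 (320 and 366). Nuclear hormone receptor genes had PQN-85 only more often than both, at 26 and 11 of 260, with nhr-50 (1420) and nhr-58 (1132) alone and nhr-68 (2137 and 197) and nhr-57 (1351 and 148) with a weak SMC-3 partner.

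Over all genes 79.8% had no site, and the remaining lists are to be read against this share. Chemoreceptor genes of the str and srh families had both at 3 of 330, C-type lectin genes at 2 of 209, and col cuticle collagen genes at 8 of 154, with 9 at PQN-85 only and 131 with none. Among the collagens col-10 (859), col-117 and col-3 (1 lone peak near both starts, 802) had PQN-85 only and col-38 both (815 and 661). No pharynx gene of 11 had a site, and of 38 cuticle and moulting genes 1 had SMC-3 only. Of 27 germline genes 1, nos-3, had both, 2 SMC-3 only and 24 none, a share of unmarked genes not far from that over all genes. Hox and patterning factors (1 of 10, lin-39), epidermal factors (1 of 12, nhr-25) and intestinal genes (1 of 18, cpr-1) had PQN-85 only where they had a site, of 13 heterochronic and moult clock genes 1, myrf-1 (1002 and 471), had both, 3 PQN-85 only and 9 none, and of 32 signalling genes 2 had both and 28 none.

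**Figure D5:**
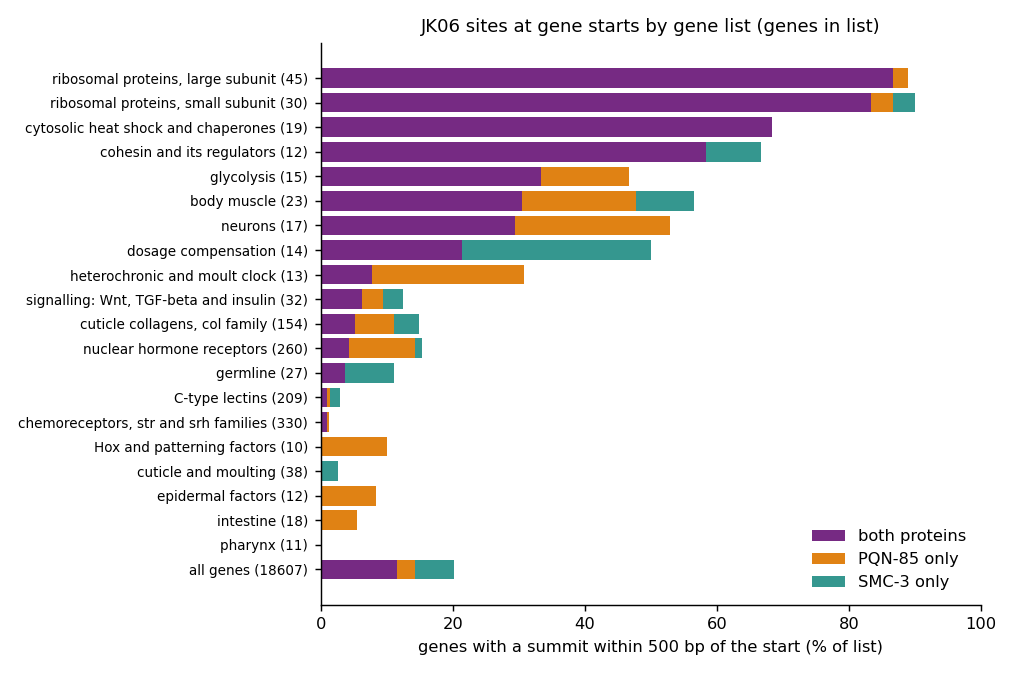
Share of the genes of each list (%, number of genes in brackets) with a JK06 summit within 500 bp of the start, coloured by class of site, with all 18607 genes in the lowest bar. Ribosomal protein lists reach 86.7% and 83.3% with both proteins, heat shock genes 68.4%, and all genes 11.5%.

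Of 12 genes of cohesin and its regulators, 7 carried both proteins at their own starts and 1 SMC-3 only. These 7 were wapl-1 itself (PQN-85 1096, SMC-3 404), scc-2, which encodes PQN-85 (605 and 427), the loader partner mau-2 (452 and 394), smc-3 (288 and 489), the kleisin genes scc-1 (269 and 244) and coh-1 (398 and 287), and evl-14, a PDS5-type gene (498 and 377), where SMC-3 lay within the window and PQN-85 at −520 bp. At these 7 genes the summits of both proteins were at most 26 bp apart. The gene scc-3, for the SA-type subunit, had SMC-3 only (221), and him-1, which encodes SMC-1, and skn-1, a stress-response transcription factor gene, had no summit within 500 bp.

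No gene of any class passed the authors' RNA test after 4 h of auxin. By DESeq2, the authors' deposited table of JK06 over CA1200 gives an adjusted p under 0.05 to 0 of 18308 genes (0%), and 73 (0.399%) an unadjusted p under 0.05, of which 1 had both proteins, 1 PQN-85 only and 2 SMC-3 only. The median log2 fold change in the authors' deposited table was 0.04 for genes with both, −0.04 with PQN-85 only, 0.06 with SMC-3 only and 0.05 for all genes. The 4 genes, picked by their unadjusted p after their values were seen, were spig-12 with both at −1.36 ± 0.63 (standard error), txt-11 with PQN-85 only at −1.84 ± 0.69, and ugt-26 and EGAP1.1 with SMC-3 only at 2.52 ± 0.62 and 1.88 ± 0.75 in the authors' deposited table. The median standard error was 0.469 for genes with both in the authors' deposited table, so small changes could not be resolved.

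With SMC-3 depleted, few genes at co-bound starts were called. The authors' deposited table of JK05 over CA1200 calls 105 of 15316 genes (0.686%) by DESeq2 at an adjusted p under 0.05, 34 higher (0.222%) and 71 lower (0.464%). Of the 2088 genes with both proteins in JK06, 0 were higher and 3 lower in the authors' deposited table, shares below those over all genes. They were ttn-1, the titin gene of muscle, at −2.34 ± 0.25, Y39E4B.6 at −1.24 ± 0.28 and vig-1 at −0.92 ± 0.25 in the authors' deposited table. Of 502 genes with PQN-85 only, 1 was higher and 3 lower, and of 1051 with SMC-3 only, 4 were higher and 2 lower in the authors' deposited table. In the JK06 list the 3 genes with both had PQN-85 scores of 149 at ttn-1, 1698 at Y39E4B.6 and 1139 at vig-1, and SMC-3 scores of 641 at Y39E4B.6 and 554 at vig-1. At ttn-1 no SMC-3 summit lay within 500 bp of the start, and it counts as having both through a PQN-85 peak that overlaps SMC-3.

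Shared peaks were found more often than lone ones in each list of the other strains described here. They were also stronger in JK06, with median scores of 418.5 for shared and 232 for lone PQN-85 peaks, and 339 and 201 for SMC-3. The part of peak strength in this order was not tested. The classes were themselves set by where each protein was called in JK06, so the order in lists of the same protein is partly built in. In JK05, with SMC-3 depleted, PQN-85 was called at 75.7% of shared and 53.0% of lone PQN-85 peaks of JK06, and at 8.86% of lone SMC-3 peaks. In the HW04 lists labelled no auxin, PQN-85 was called at 82.0% and 95.3% of the shared, 65.3% and 91.7% of the lone PQN-85 and 14.3% and 35.2% of the lone SMC-3 peaks. In those labelled auxin, PQN-85 was called at 54.6% and 17.4% of the shared, 38.5% and 14.7% of the lone PQN-85 and 4.88% and 0.904% of the lone SMC-3 peaks. SMC-3 in the HW04 lists labelled auxin was called at 88.3% and 92.8% of the shared PQN-85 peaks, 45.6% and 56.8% of the lone PQN-85 peaks and 44.9% and 45.1% of the lone SMC-3 peaks. For the HW04 SMC-3 lists, the peak names and the labels disagree on which had auxin. In those labelled no auxin the values were 73.2% and 71.0% for shared PQN-85, 15.97% and 15.9% for lone PQN-85 and 23.8% and 21.7% for lone SMC-3 peaks.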

How the data were processed

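ChIP-seq peak lists of PQN-85 and SMC-3 and RNA comparison tables were used as deposited. Per the submitters' processing notes of JK06 replicates 3 and 4 and HW04, ChIP reads were handled with MACS3, MACS2 2.1.1, Bowtie2 2.4.2, deepTools 3.5.0 and SAMtools 1.11. The authors named DESeq2 1.30.0, HISAT2 2.2.1, Cufflinks 2.2.1 and HTSeq 0.13.5 for RNA in these notes. In the deposited lists the authors give each peak a score, a fold enrichment (ratio of ChIP over input), a −log10 q value and a summit. The score and fold are the authors' own, and were used within a list only. The deposited tables hold the authors' log2 fold change, its standard error, p-value and adjusted p-value, and a mean normalized count (a signal averaged by the authors across the libraries). There were 2 RNA libraries per strain.

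Overlaps, summit distances and gene context were computed in Python 3.11.15 with pandas 2.3.3 and scipy 1.17.1, and were tested on simulated peaks. A site is a run of overlapping peaks; context classes use summits on the 6 nuclear chromosomes. A gene counts as co-bound if a summit of a shared peak lies within 500 bp of its start. Gene starts are those of the RNA tables, for which the sources used here name no build. The mean of the plus- and minus-strand median summit offsets, which is 0 where builds match, was −17.75 to 5.25 bp by chromosome. Of 18607 genes, 18230 matched a RefSeq locus tag, which gave the symbols. Promoter sequences and motifs were not analysed here. The members and lists were chosen with earlier results of these data known. Named sites all lie on the 6 nuclear chromosomes and are the 5 highest by score in each class, by width or by summit distance. Named genes are the cohesin genes and up to 4 per list with the highest PQN-85 score. Input, SMC-1, Hi-C and other libraries were not analysed here.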

Additional observations from a re-analysis of the deposited data

How the results depend on the processing

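The combined sets could not be remade without 1 library, so the single lists stand in for that check. No paired analysis was possible because the combined sets carry no replicate numbers and no result comes from a test over replicates. The PQN-85 share of 59.0% became 56.2% with summits within 500 bp, 57.5% at −log10 q of at least 10, 70.5% and 61.3% with SMC-3 replicates 3 and 4 and 44.99% with the averaged PQN-85 list. The SMC-3 share of 63.8% became 61.7% with summits within 500 bp, 54% and 61.5% with replicates 3 and 4, 80.2% with the averaged list and 62.3% without X. JK06 minus CA1200 was −5.66 in place of 3.06 points for SMC-3 and −7.86 in place of −14.8 for PQN-85 with the 5000 highest peaks. JK06 minus JK05 moved to 55.6 points for PQN-85 with 5000 peaks, and at −log10 q of at least 10 to 52.6 for PQN-85 and −12.04 for SMC-3. The median summit distance was 22 bp for 1:1 pairs, 22 bp at −log10 q of at least 10, and 30 and 32 bp with replicates 3 and 4. The width difference between classes was 56 bp for PQN-85 at −log10 q of at least 10, and 87, 91 and 99 bp for SMC-3 with replicate 3, replicate 4 and scores above the median. The fold difference was 0.423 and 0.417 for SMC-3 with the replicates, and 0.0671 for PQN-85 and 0.0290 for SMC-3 for scores above the median, and below 0 in each score quartile. The difference at gene starts for PQN-85 moved from 23.95 points to 17.3 (250 bp window), 27.1 (without X), 17.3 (lowest score quartile) and 20.6 (highest). For SMC-3 it turned from 2.76 points to −1.39 (250 bp window) and to −6.22, −9.34 and −5.63 in the lower 3 score quartiles, and was 12.8 for SMC-3 peaks without averaged PQN-85. Ribosomal protein genes with both fell to 29 with a 250 bp window. At −log10 q of at least 10, CA1200 SMC-3 was found at 35.8% of lone PQN-85 (42.3% before) and 41.7% of lone SMC-3 peaks (44.5% before). The causes were not tested. Another 56 values stayed within their intervals or within 1.5 times the count. Score quartiles, scores above the median, the firmer classes and the context and summit values without X were chosen after seeing the data. Read depth is unknown, so weak sites missing from a list may be below its detection limit.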
